A study of Sus scrofa with 12 samples.

Results

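The genes for the proteins of the cytosolic ribosome were described in RNA sequencing libraries of porcine cells. Members were chosen by gene symbol alone: RPL or RPS followed by a number, RPLP0, RPLP1, RPLP2 and RPSA, without the ribosomal protein S6 kinases and the paralogs whose symbols end in L1. This rule found 45 of 19681 genes in the deposited expression tables, 23 of the small (40S) subunit and 22 of the large (60S) subunit. The libraries formed 4 groups of 3 biological replicates, named A, B and C. AOC is an established porcine endothelial cell line. IEC2, IEC4 and IEC12 are porcine induced pluripotent stem cells after 2, 4 and 12 days of endothelial induction, first with the GSK3 inhibitor CHIR99021, then with BMP4, FGF2 and VEGF, and last in the endothelial medium EGM-2 with VEGF. The IEC12 cells were not sorted, and the undifferentiated and the CD31-sorted cells of the study were not analysed here.

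Ribosomal proteins assemble with ribosomal RNA in the nucleolus, each in a single copy per ribosome apart from the acidic stalk proteins. Their mRNAs are among the most abundant of growing cells and carry a pyrimidine tract at the 5′ end, the TOP motif, through which mTOR signalling and LARP1 control their translation as a group. Because the proteins are needed in equal numbers, their mRNAs usually rise and fall together, and stem cells and other fast-growing cells hold many of them. Many of these genes also have processed pseudogenes, so reads of 1 gene can be shared with near-identical copies, and the level of any single member is uncertain to that extent.

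No member was listed at 0 in any library, and 42 of the 45 had at least 1 FPKM (fragments counted for a gene, scaled by its transcript length and by the fragments mapped in the library) in all 12 libraries. RefSeq positions on Sscrofa11.1 were found for all 45 by symbol. They lay on 14 chromosomes, with 3 (RPL10, RPL36A and RPS4X) on X. The RefSeq table held 35 further symbols of the rule, which were not analysed here, so the sums below cover part of the ribosome.

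Sequencing depth relative to one another, recovered from the steps of the lowest FPKM values, ran from 0.667 in IEC12 A to 1.23 in IEC4 A. The 12 mitochondrially encoded genes took 15.01% of FPKM in IEC12 A, 9.78% in IEC12 B and 7.77% in IEC12 C, against 1.95 to 7.10% in the 9 other libraries. Of 12 endothelial markers 10 were found, with a summed FPKM of 295 to 420 in AOC and at most 9.28 in any IEC library. The markers did not all behave alike. CDH5, the endothelial cadherin, was listed at 0 in all IEC libraries, and PECAM1 (CD31) reached at most 0.105 FPKM in IEC12. ENG had a mean of 2.54 FPKM in IEC2, 3.26 FPKM in IEC4 and 0.872 FPKM in AOC, and KDR of 2.95 FPKM in IEC2 and 1.36 FPKM in AOC. No marker had a median of 1 FPKM or more in IEC12. A value of 0 here need not mean that a gene is silent, since WDR43, a ribosome biogenesis factor that every cell uses, was also listed at 0 in all AOC libraries. Epithelial markers (5 of 6 found) summed to 519 to 1434 FPKM in IEC4, with the highest value in IEC4 C, and to 41.8 to 144 FPKM in IEC2 and IEC12. The share of a cell type and the RNA per cell cannot be told apart in such bulk samples.

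The summed FPKM of the members took a larger part of the total on day 2 of induction than in any other group. The rank of IEC2 above AOC rested on the 5 highest members. The family's share of summed FPKM was 8.53, 7.39 and 6.92% in IEC2 A, B and C. It was 4.14, 4.41 and 4.52% in IEC4, 5.05, 4.76 and 4.44% in IEC12, and 4.45, 4.48 and 4.50% in AOC. All IEC2 libraries lay above all others, while the remaining groups overlapped. As means, the share was 7.61% ± 0.83 in IEC2, 4.36% ± 0.19 in IEC4, 4.75% ± 0.30 in IEC12 and 4.48% ± 0.023 in AOC (SD, n = 3). Without RPS3A, RPLP0, RPSA, RPL4 and RPL7 the mean share was 2.74% in IEC2 and 3.13% in AOC, so AOC was then highest. It was 1.56% in IEC4 and 2.00% in IEC12, and every IEC2 library still lay above every IEC4 and IEC12 library. The median member was 12.1 times the median expressed gene in IEC2 and 16.5 times in AOC. IEC2 was highest for both subunits, with mean shares of 3.81% for the 40S and 3.80% for the 60S members in IEC2 and of 2.17% and 2.19% in IEC4. In AOC the 40S members held 2.53% and the 60S members 1.95%, the lowest mean of the 4 groups for the 60S. The 61 mitochondrial ribosomal protein genes, which serve the separate ribosome of the organelle, stayed between 0.516 and 0.704% in all libraries.

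**Figure D1:**
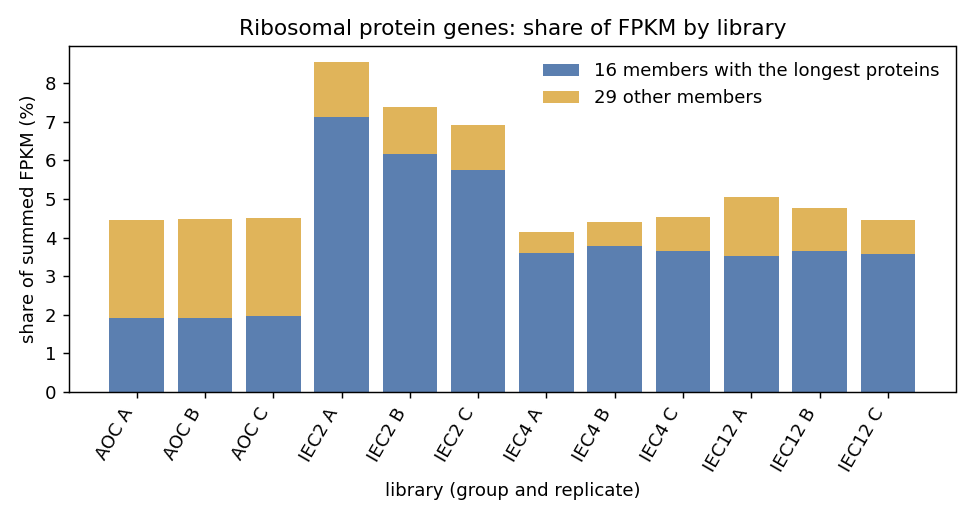
Share of summed FPKM (%, vertical axis) taken by the 45 ribosomal protein genes in each of the 12 libraries, split into the 16 members with the longest proteins (blue) and the 29 other members (yellow). IEC2 is highest at 6.92 to 8.53%, and AOC has a like total to IEC4 and IEC12 but a larger yellow part.

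Although the totals of AOC, IEC4 and IEC12 were close, the make-up of the family differed. The members were split, after their values had been seen, into the 16 with the longest proteins in mammals (among them RPL3, RPL3L, RPL4, RPL5, RPL6, RPL7, RPL7A, RPL10, RPL14, RPLP0, RPS2, RPS3, RPS3A, RPS4X and RPSA) and the 29 shorter ones. The split is therefore a description and was given no test. The longest proteins took 83.4% ± 0.16 of the family's FPKM in IEC2, 84.5% ± 3.3 in IEC4, 75.6% ± 5.6 in IEC12 and 43.1% ± 0.51 in AOC (SD, n = 3). AOC stood apart from all IEC libraries, the lowest of which was IEC12 A with 69.6%.

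Set against IEC2, the AOC libraries lay higher for 25 of the 29 shorter members and lower for 14 of the 16 longest, without overlap between the groups. Over the 11053 genes tested in all 12 libraries, AOC lay above IEC2 without overlap for 29.9% and below it for 41.6%. The median ratio of the AOC to the IEC2 mean FPKM was 3.49 for the shorter and 0.456 for the longest members. RPS24 was among the shorter members that went the other way, and RPS18 and RPL36AL overlapped. By mean FPKM, AOC was the highest group for 25 shorter members, IEC4 the lowest for 27 of them, and IEC2 the highest for 13 of the 16 longest. Across the 12 libraries the log2 levels of 2 longest members had a median Pearson r of 0.80 (105 pairs), those of 2 shorter members of 0.88 (406 pairs), and those of a longest and a shorter member of −0.38 (435 pairs, 311 of them negative). RPS2 was left out of these pairs, and the points share libraries, replicates and depth, so the correlations are a description.

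**Figure D2:**
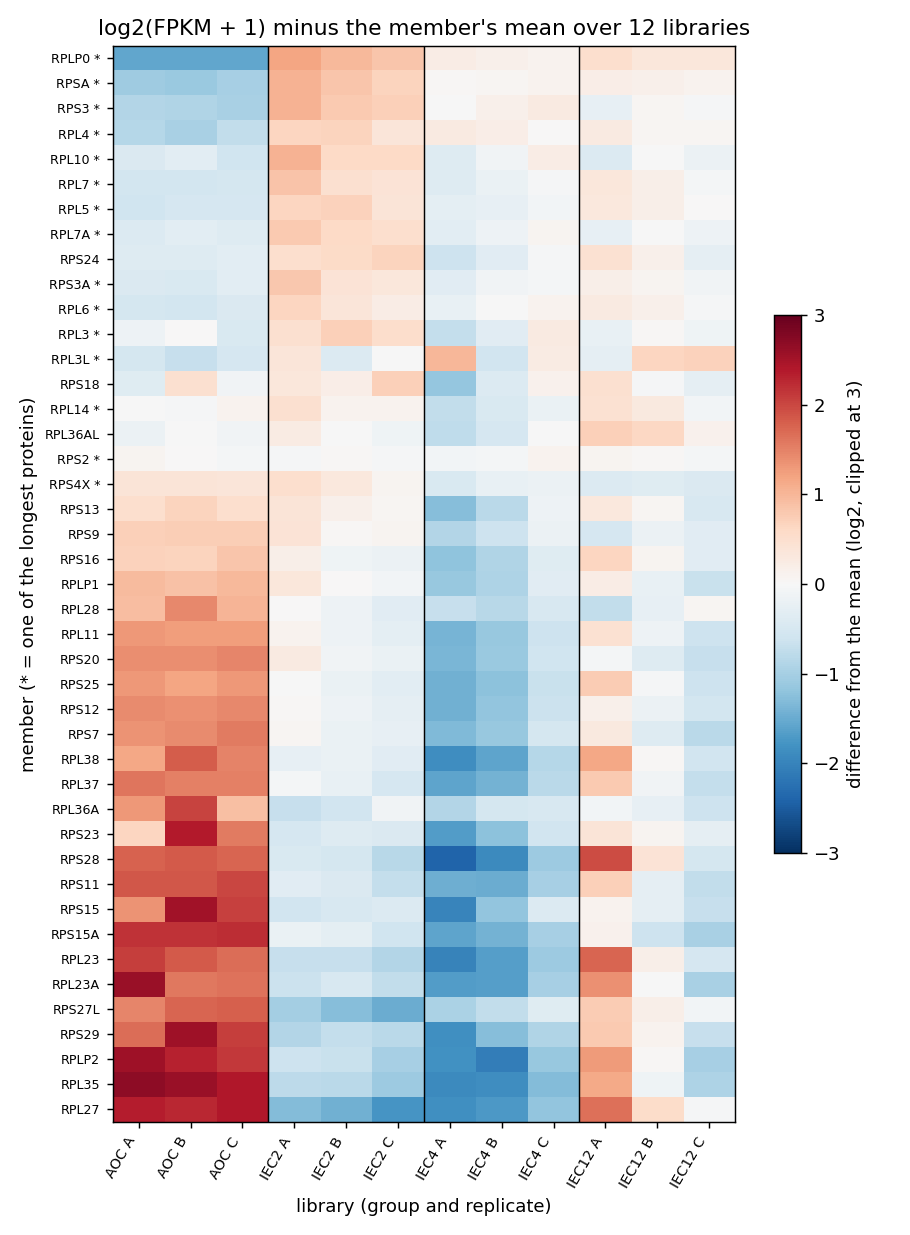
The log2(FPKM + 1) of 43 of the 45 members minus each one's own mean over the 12 libraries (colour, log2 units), with members as rows ordered from lowest to highest AOC level relative to IEC2 and libraries as columns. Rows marked with an asterisk, the longest proteins, gather at the top where AOC is blue and IEC2 red, and the shorter members below show the reverse, with IEC4 A and B the palest or bluest and IEC12 A redder than IEC12 C.

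The highest member over the series was RPS3A, a 40S protein near the mRNA exit (chromosome 8, 77889616 to 77893740). Its FPKM was 6034, 4648 and 4419 in IEC2, 2743, 3202 and 3319 in IEC4, 3952, 3651 and 3219 in IEC12 and 2586, 2513 and 2803 in AOC. RPS3A alone made up 19.2% of the family's FPKM in IEC2 and 13.6% in AOC. RPLP0, the base of the stalk that recruits elongation factors (chromosome 14, 40219196 to 40223943), was at the level of RPS3A in IEC2 but not in AOC. Its FPKM was 5735, 4907 and 4496 in IEC2, 2912, 2773 and 2712 in IEC4, 3571, 3156 and 3150 in IEC12, and 851, 856 and 849 in AOC. No AOC library came near any IEC library, and by group means RPLP0 made up 19.3% of the family's FPKM in IEC2 and 4.40% in AOC.

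RPSA, a 40S protein also known as the laminin receptor (chromosome 13, 24072551 to 24081536), followed the same order. Its FPKM was 3068, 2680 and 2369 in IEC2, 1546, 1573 and 1605 in IEC4, 1726, 1677 and 1604 in IEC12 and 712, 688 and 751 in AOC. RPL4, which lines the exit tunnel for the growing chain (chromosome 1, 164476269 to 164481765), had 2126, 2187 and 1756 FPKM in IEC2 and 758, 692 and 819 FPKM in AOC. RPL7, the fifth by mean level, had 2327, 1781 and 1710 FPKM in IEC2 and 869, 878 and 893 FPKM in AOC. In AOC the places behind RPS3A were taken by RPS16 with a mean of 1540.5 FPKM, RPL11 with 1321 FPKM and RPS20 with 1082 FPKM, all shorter members. The order among RPS16, RPL11 and RPS20 in AOC exceeded their spread, with 1472 to 1655, 1297 to 1348 and 1063 to 1118 FPKM.

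**Figure D3:**
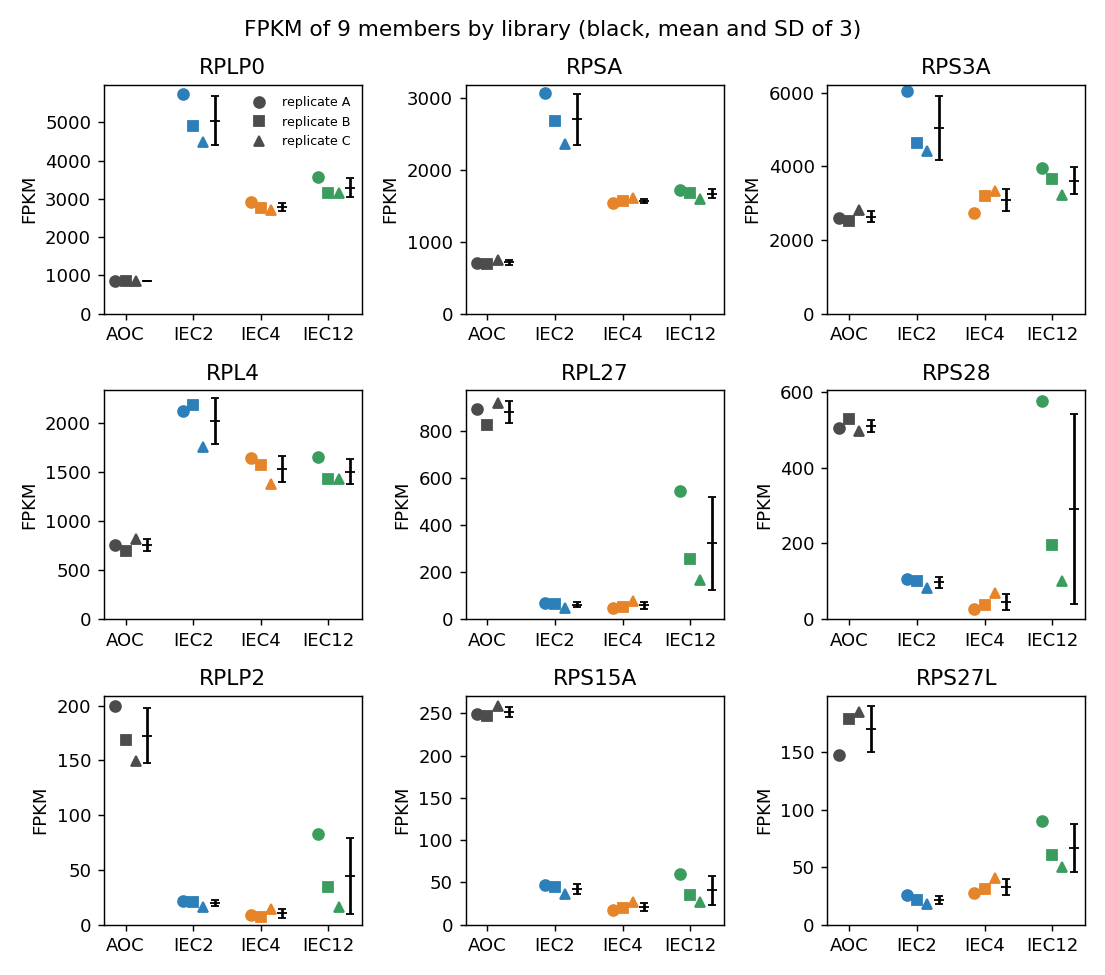
FPKM of 9 members in each library (vertical axis from 0, a scale of its own per panel), grouped by AOC, IEC2, IEC4 and IEC12, with replicates A, B and C as circle, square and triangle and the mean ± SD of 3 in black. RPLP0, RPSA, RPS3A and RPL4 are highest in IEC2, while the shorter members RPL27, RPLP2, RPS15A and RPS27L are highest in AOC and RPS28 reaches the AOC level in IEC12 A only.

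At the other end, RPS2 lay between 0.0475 and 0.192 FPKM in all libraries, although it is a core 40S protein that every cell uses. RPL3L, a paralog of RPL3 known from heart and skeletal muscle, reached at most 2.31 FPKM (IEC4 A). It lay next to RPS2 on chromosome 3 (39996179 to 40003110 for RPS2 and 40004907 to 40016702 for RPL3L). RPL3 itself, one of the largest and oldest 60S proteins, was at 5.07 to 15.5 FPKM, far below its partners RPL4 and RPL7. RPL36A, on X, had 2.87 to 7.38 FPKM in AOC and at most 0.938 FPKM in any IEC library, whereas its autosomal paralog RPL36AL had 37.7 to 107.5 FPKM throughout. RPL28 ranged from 3.59 FPKM in IEC4 B to 21.2 FPKM in AOC B. Proteins that every 40S or 60S subunit holds once, such as RPS2 and RPS3A, thus had very different FPKM within every library.

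Comparisons between groups were made with limma on log2(FPKM + 1) across all genes that passed a filter on low values, so every fold change is on that scale and understates the change of low members, and a call is an adjusted p under 0.05 over all tested genes. RPS2 and RPL36A did not pass the filter among the IEC libraries, which left 43 members there, and RPS2 did not pass among all 12 libraries, which left 44. The study set far stricter limits, p and adjusted p under 0.001 and a log2 change beyond 3, for undifferentiated cells against AOC. That comparison was not made here. Applied to the present fits, the limits called no member in any of the 4 comparisons. Under these limits 0.987% of all tested genes were higher and 0.19% lower in IEC4 than in IEC2, and 0.142% higher and 0.797% lower in IEC12 than in IEC4. The shares were 0.607% and 0.617% for IEC12 against IEC2, and 2.13% and 2.28% for AOC against IEC12.

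From day 2 to day 4 of induction most members fell. Of 43 members 29 were lower in IEC4 than in IEC2 and none was higher, against 12.5% of all 10542 tested genes lower and 24.8% higher. The median change of the members was −0.79, beside 0.20 for all tested genes. Both subunits took part, with 16 of 22 members of the 40S and 13 of 21 of the 60S lower. So did both size classes, with 14 of 15 longest members lower (median −0.75) and 15 of 28 shorter ones (median −0.85), but the count of shorter members was not stable. The groups did not overlap for 39 of 43 members (53.5% of all tested genes).

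The members with the largest called falls were all short. RPL38, a 60S protein linked to the translation of Hox mRNAs in the mouse, had 8.28, 8.65 and 7.72 FPKM in IEC2 and 2.05, 2.71 and 5.09 FPKM in IEC4 (log2 change −1.17, SE 0.40, adjusted p = 0.045 by limma). RPL37, with 180.4, 163 and 134 FPKM in IEC2, had 62.2, 70.5 and 107 FPKM in IEC4 (−1.01, SE 0.34, adjusted p = 0.041). All 3 IEC4 libraries lay below all of IEC2 for both genes, yet IEC4 C lay nearest to IEC2 in each. RPS20, a 40S protein of the head of the subunit, changed from 482, 376 and 349 FPKM to 156, 184 and 267 FPKM (−1.01, SE 0.23, adjusted p = 0.0071). RPS15A changed by −0.97 (SE 0.27, adjusted p = 0.019) and RPS12 by −0.95 (SE 0.23, adjusted p = 0.0092). RPS20 and RPS12 passed in all 6 fits that left out 1 of the compared libraries, RPS15A in 2, and RPL37 and RPL38 in 1.

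The long members changed by less but with smaller errors. RPLP0 changed by −0.84 (SE 0.13, adjusted p = 0.00088), RPSA by −0.77 (SE 0.12, adjusted p = 0.0011) and RPL5 by −0.78 (SE 0.13, adjusted p = 0.0016). In all, 13 members passed in each of the 6 fits, 10 of them among the longest. Members far from the family's median in this comparison were RPS27L, RPL3L and RPL27. RPS27L, a target of p53 and paralog of RPS27, had 25.5, 21.1 and 18.3 FPKM in IEC2 and 27.1, 31.2 and 40.6 FPKM in IEC4, and its change of 0.58 did not pass (SE 0.23, adjusted p = 0.078). RPL27 changed by −0.07 (SE 0.37, adjusted p = 0.89) and RPL3L by 0.24 (SE 0.41, adjusted p = 0.67).

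The count of lower members depended on single libraries. It was 14 without IEC4 A (9.63% of all tested genes lower), 15 without IEC4 B (9.46%), 14 without IEC2 A (9.85%) and 15 without IEC2 B (8.75%). With the replicate letter as a block it was 21 (11.8%). The shorter members accounted for most of this: 3 or 4 of them were lower with any of these 4 libraries left out, 8 with the block and 5 without the filter on low values, against 10 to 13 of the longest. The epithelial markers CLDN6, KRT8 and CDH1 were higher in IEC4 than in IEC2, with KRT8 at 13.6, 20.3 and 12.9 FPKM in IEC2 and 300.4, 435 and 748 FPKM in IEC4, and their part in the fall of the family was not tested.

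Between day 4 and day 12 most of the shorter members rose and most of the longest did not pass the test. In IEC12 22 of 43 members were higher than in IEC4 and none lower, against 17.3% of all tested genes higher and 26.9% lower. The median change of the members was 0.70, beside −0.15 for all genes. The 28 shorter members held 20 of the higher ones (median 0.95), and the 15 longest held 2, RPL14 and RPL5 (median 0.16, and −0.03 when the libraries were scaled to equal FPKM totals). The subunits shared the rise, with 11 higher members each. Groups did not overlap for 22 of 43 members (56.3% of all tested genes).

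RPS28, a small 40S protein near the mRNA exit (chromosome 2, 70953706 to 70954862), showed the largest rise. Its FPKM was 26.9, 38.4 and 68.8 in IEC4 and 577, 196 and 101 in IEC12 (log2 change 2.41, SE 0.54, adjusted p = 0.0062). RPL27 (chromosome 12, 19892210 to 19894202) went from 47.8, 51.9 and 75.3 FPKM to 546, 254 and 169 FPKM (2.30, SE 0.37, adjusted p = 0.0011). The groups did not overlap for either gene, and IEC12 A lay far above IEC12 B and C for both. RPL23, a 60S protein that can also bind MDM2, went from 12.5, 16.3 and 24.7 FPKM to 182, 60.9 and 37.3 FPKM (2.06, SE 0.48, adjusted p = 0.0072). RPLP2, an acidic stalk protein, rose by 1.78 (SE 0.48, adjusted p = 0.014). RPL35, at the rim of the exit tunnel, rose by 1.71 (SE 0.43, adjusted p = 0.010).

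IEC12 A was the highest replicate in most of these, so the counts were also made without it. Without IEC12 A, 19 members were higher in IEC12 than in IEC4 (18 shorter and 1 longest) with a median of 0.54, against 15.6% of all tested genes. Without IEC4 C, the highest IEC4 replicate, 28 were higher (16.9% of all tested genes). The count was 12 without IEC4 A (13.8%) and 12 without IEC4 B (13.5%), and 11 members passed in all 6 such fits.

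Over the whole course from day 2 to day 12, few members outside the longest were called. Of the 28 shorter members 25 were not called, which does not show that they were unchanged. Of 43 members 11 were lower in IEC12 than in IEC2 (19.3% of all tested genes) and 2 higher (24.2%), with a median of −0.12 beside 0.03 for all genes. The share of members called lower was thus close to the background. The lower members were 10 of the 15 longest, with RPS9 as the only shorter one. The longest had a median of −0.47 and the shorter of 0.21, which became −0.07 with libraries scaled to equal FPKM totals. The groups did not overlap for 19 members (54.4% of all tested genes).

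RPL10, one of the last proteins to join the 60S subunit (X, 124927249 to 124929791), had 486, 358 and 360 FPKM in IEC2 and 177, 234 and 210.4 FPKM in IEC12 (log2 change −0.95, SE 0.19, adjusted p = 0.0032). RPS3, a 40S protein at the mRNA entry that also acts in DNA repair, had 2185, 1849 and 1763 FPKM in IEC2 and 904, 1103 and 1047 FPKM in IEC12 (−0.92, SE 0.14, adjusted p = 0.00058). RPL7A changed by −0.76 (SE 0.14, adjusted p = 0.0017), RPS4X by −0.70 (SE 0.14, adjusted p = 0.0027) and RPSA by −0.69 (SE 0.12, adjusted p = 0.0016). All of these lay lower in every IEC12 library than in any IEC2 library and passed in all 6 fits with a library left out.

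RPL27 and RPS27L stood apart from the rest of the family here as well. RPL27 had 69.9, 63.2 and 49.5 FPKM in IEC2 and rose by 2.23 (SE 0.37, adjusted p = 0.0011). RPS27L reached 90.1, 60.1 and 50.3 FPKM in IEC12 and rose by 1.55 (SE 0.23, adjusted p = 0.00062). Both passed in all 6 fits with a library left out. Without IEC12 C the higher members numbered 9 of 43, close to the 20.9% of all tested genes, and the family's median turned to 0.12. The lower members numbered 6 without IEC12 B, IEC12 C, IEC2 A or IEC2 B, against 14.1 to 20.2% of all tested genes.

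The endothelial line differed from day 12 cells in both directions. In AOC 23 of 44 members were higher than in IEC12 (22.4% of all 11053 tested genes) and 13 lower (36.2%), with a median of 1.11 beside −0.21 for all genes. By class, 22 of 29 shorter members were higher and 3 lower (median 1.44), whereas 10 of 15 longest members were lower and 1, RPS4X, higher (median −0.70). The groups did not overlap for 37 members (66.3% of all tested genes), and 30 passed in all 6 fits with a library left out. Scaling the libraries by the median of ratios moved the median of all genes from −0.21 to −0.01. Then 26 members were higher and 6 lower, all 6 among the longest, against 29.7% and 28.5% of all tested genes. RPL36A passed the filter only through AOC, where it is high, and without it 22 of 43 members and 21 of 28 shorter ones were higher.

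**Figure D4:**
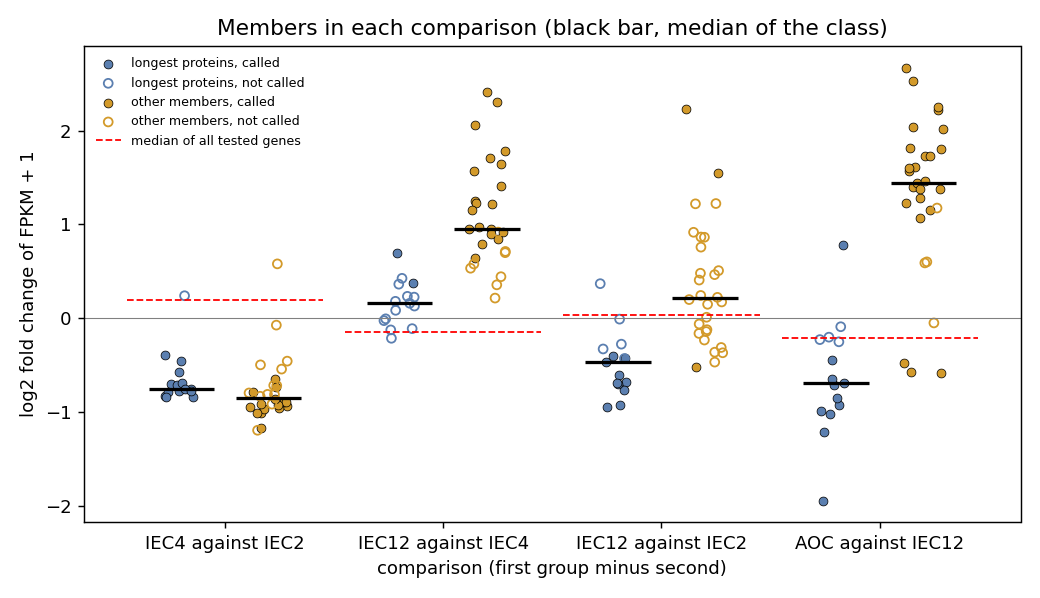
Fitted log2 fold change of FPKM + 1 (vertical axis) of each tested member in the 4 comparisons, split into the longest (blue) and shorter (yellow) members, with filled points called at an adjusted p under 0.05, black bars at class medians and red dashes at the median of all tested genes. The classes move together from IEC2 to IEC4 (medians −0.75 and −0.85) and lie on opposite sides of 0 for AOC against IEC12 (−0.70 and 1.44).

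Among the higher members, RPS15A, a protein of the 40S subunit (chromosome 3, 26776661 to 26783491), had 249, 247 and 258 FPKM in AOC and 59.8, 35.0 and 27.4 FPKM in IEC12 (log2 change 2.67, SE 0.24, adjusted p = 2.0e-06). RPL35 had 95.8, 89.2 and 79.2 FPKM in AOC and 32.0, 12.8 and 6.90 FPKM in IEC12 (2.53, SE 0.39, adjusted p = 0.00015). RPS15, near the decoding centre, had 174, 396 and 286 FPKM in AOC and 73.4, 56.2 and 42.0 FPKM in IEC12 (2.25, SE 0.37, adjusted p = 0.00026). No AOC library of these 3 genes overlapped IEC12, though RPS15 varied widely within AOC. RPLP2 was higher by 2.22 (SE 0.44, adjusted p = 0.0010) and RPS29, a zinc-binding 40S protein, by 2.04 (SE 0.35, adjusted p = 0.00036).

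RPLP0 had the most negative fitted change, at −1.95 (SE 0.11, adjusted p = 2.8e-08), followed by RPSA at −1.22 (SE 0.10, adjusted p = 1.2e-06). RPL4 changed by −0.99 (SE 0.12, adjusted p = 2.3e-05). RPL3L was called at −0.92 (SE 0.37, adjusted p = 0.048), from levels near 1 FPKM, and passed in 1 of the 6 fits with a library left out. RPS4X, the exception among the long members, had 202, 201 and 199.9 FPKM in AOC and 117, 119.8 and 113 FPKM in IEC12 (0.78, SE 0.12, adjusted p = 0.00014).

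Proteins that work side by side in the ribosome were on opposite sides in this comparison, as the size classes were. RPLP0 and RPL5 belong to the longest members, and RPLP1, RPLP2 and RPL11 to the shorter ones. In the stalk, RPLP0 was lower in AOC while its acidic partners RPLP1 (1.16, SE 0.24, adjusted p = 0.0012) and RPLP2 were higher. RPLP1 had 954, 909 and 962 FPKM in AOC and 573, 422 and 309 FPKM in IEC12. The ribosomal proteins that bind 5S rRNA and hold MDM2 in check, RPL5 and RPL11, split in the same way. RPL5 had 118, 127 and 125 FPKM in AOC and 224, 203 and 182 FPKM in IEC12 (−0.71, SE 0.12, adjusted p = 0.00025), and RPL11 had 1348, 1297 and 1317 FPKM in AOC and 755, 492 and 356 FPKM in IEC12 (1.37, SE 0.25, adjusted p = 0.00059). From IEC2 to IEC4 all 5 of these genes had negative changes, and RPLP2 alone did not pass (−0.92, SE 0.48, adjusted p = 0.16).

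Replicates differed far more for the shorter than for the longest members in 2 groups. The median ratio of the highest to the lowest replicate was 2.12 for the shorter and 1.22 for the longest members in IEC12, and 1.76 and 1.26 in IEC4. Over the 6428 genes with at least 1 FPKM in all 12 libraries the ratio was 1.37 in IEC12 and 1.31 in IEC4. In AOC the ratios were 1.13 and 1.08, and in IEC2 1.29 and 1.3. IEC12 A was the highest replicate for 27 of 29 shorter members and IEC4 C for all 29. The shorter members together held 1.54, 1.11 and 0.860% of FPKM in IEC12 A, B and C, while the longest held 3.52, 3.65 and 3.58%. In IEC4 the shorter held 0.535, 0.635 and 0.872% and the longest 3.61, 3.78 and 3.65%.

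Some other values moved with the shorter members in part of these libraries. IEC12 A had the lowest relative depth, 0.667 against 1.15 and 1.04 in IEC12 B and C, and the highest mitochondrial share. Its epithelial marker sum was the lowest of its group, 41.8 FPKM against 79.6 and 86.6 FPKM. IEC12 C was shallower than IEC12 B but held less in the shorter members. IEC4 C had the lowest depth of its group, 1.01 against 1.23 and 1.16, the highest mitochondrial share of its group (7.10% against 4.28 and 5.11%) and the highest epithelial marker sum. IEC2 lay above IEC4 in the share of shorter members (1.16 to 1.41%) and below it in the mitochondrial share (1.95 to 2.19%). A further list of 39 genes for small proteins outside the ribosome, written after the values of the members had been seen, had median FPKM of 27.8, 26.1 and 26.5 in IEC2, 20.9, 20.3 and 39.6 in IEC4, 69.6, 69.0 and 54.5 in IEC12 and 94.9, 105.5 and 89.7 in AOC. Like the shorter ribosomal proteins, these genes were highest in AOC, lowest in IEC4 A and B, and higher in IEC4 C than in its partners. IEC12 A and B were level for them, whereas the median of the shorter ribosomal proteins was 121 FPKM in IEC12 A and 74.5 FPKM in IEC12 B. Of the 39, 29 were higher and none lower in IEC12 than in IEC4 (median 0.94), against 17.3% and 26.9% of all tested genes. In AOC 21 were higher and 9 lower than in IEC12 (median 0.80), against 22.4% and 36.2%. The lists parted in the comparisons with IEC2. Of the 39, 22 were higher and 0 lower in IEC12 (median 0.93), against 24.2% and 19.3% of all tested genes. The 28 shorter members had 2 higher and 1 lower (median 0.21). In IEC4 5 of the 39 were higher and 5 lower than in IEC2 (median −0.12), against 24.8% and 12.5%. The shorter members had 0 higher and 15 lower (median −0.85). The part of protein size, depth and mitochondrial RNA in the split between longer and shorter members was not tested.

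**Figure D5:**
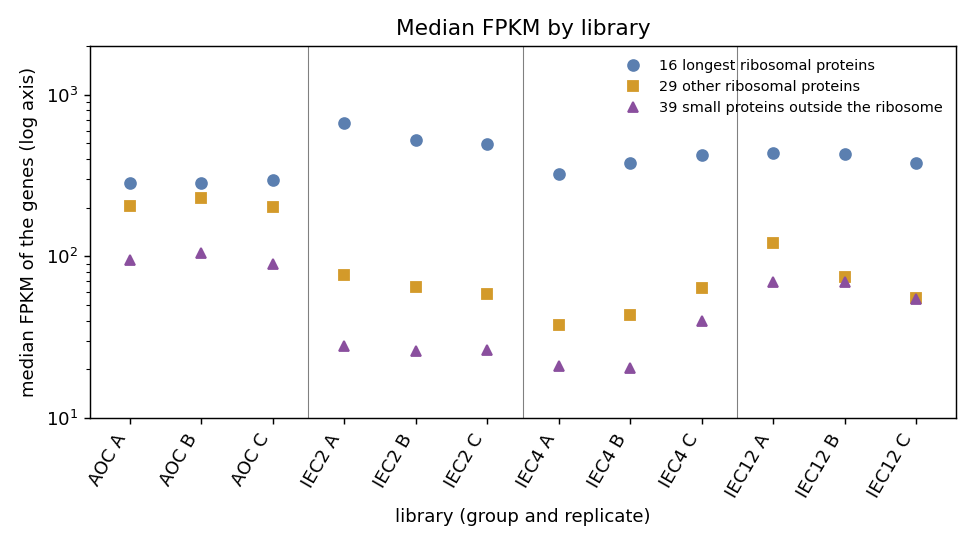
Median FPKM (log axis) in each library of the 16 longest ribosomal proteins (circles), the 29 shorter ones (squares) and 39 genes for small proteins outside the ribosome (triangles). The shorter ribosomal proteins lie at 203 to 229 FPKM in AOC and 37.7 to 121 FPKM in the IEC libraries, and the triangles are likewise highest in AOC, whereas the circles are lowest in AOC and highest in IEC2.

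Members with paralogs are given here one by one. RPS27, the paralog of RPS27L, was among the symbols not analysed, so that pair could not be compared. RPS27L was called higher in IEC12 than in both IEC4 (0.97, SE 0.23, adjusted p = 0.0084) and IEC2, and higher in AOC than in IEC12 (1.37, SE 0.22, adjusted p = 0.00019). RPL36AL rose from IEC4 to IEC12 by 0.92 (SE 0.22, adjusted p = 0.0085) but was lower in AOC by −0.59 (SE 0.20, adjusted p = 0.025), whereas RPL36A had 4.04, 7.38 and 2.87 FPKM in AOC and 0.938, 0.723 and 0.334 FPKM in IEC12. The paralogs outside the rule, RPL7L1 and RPL26L1, were both higher in IEC12 than in IEC4, by 1.01 (SE 0.11, adjusted p = 0.00013) and 0.79 (SE 0.19, adjusted p = 0.0082). RPL7L1 had 95.6, 95.3 and 88.3 FPKM in IEC2 and 251, 229.9 and 216 FPKM in IEC12. RPL7 itself went from 1940 to 1434 FPKM on average, a change that was not called (−0.43, SE 0.16, adjusted p = 0.057).

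RACK1, a scaffold protein of the 40S head that lacks an RPS symbol, is a long protein too and was also lowest in AOC. It had 1466, 1378 and 1184 FPKM in IEC2, 1193, 1189 and 1111 FPKM in IEC4, 1616, 1510.3 and 1498 FPKM in IEC12 and 752, 703 and 831 FPKM in AOC, and it was lower in AOC than in IEC12 by −1.02 (SE 0.11, adjusted p = 6.3e-06). FAU, which encodes a ubiquitin-like protein fused to RPS30, had at most 2.81 FPKM in any library.

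Translation factors whose mRNAs carry a TOP motif were mostly called lower where they were called. Of 12 tested, 7 were lower and none higher in IEC4 than in IEC2 (median −0.50), 7 lower and none higher in IEC12 than in IEC2 (median −0.68), 5 lower and 1 higher in IEC12 than in IEC4 (median −0.25), and 6 lower and none higher in AOC than in IEC12 (median −0.36). Of all tested genes, 12.5%, 19.3%, 26.9% and 36.2% were lower in these comparisons, in the same order, so the count for AOC stood nearest to the background. EEF2, the translocation factor of elongation, had 581, 788 and 747 FPKM in IEC2, 594, 625 and 488 FPKM in IEC4, 134, 195 and 247 FPKM in IEC12 and 98.5, 94.0 and 75.4 FPKM in AOC. It was lower in IEC12 than in IEC4 by −1.60 (SE 0.22, adjusted p = 0.00051). EEF1B2, an exchange factor for eEF1A, was lower in IEC4 than in IEC2 by −0.63 (SE 0.14, adjusted p = 0.0077) and lower in AOC than in IEC12 by −1.08 (SE 0.13, adjusted p = 1.9e-05).

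Ribosome biogenesis factors, which assemble the subunits, had 1 higher and 9 lower of 54 in IEC4 against IEC2, 13 and 8 in IEC12 against IEC4, 5 and 9 in IEC12 against IEC2, and 8 and 22 of 57 in AOC against IEC12. Over all tested genes 24.8% were higher and 12.5% lower, 17.3% and 26.9%, 24.2% and 19.3%, and 22.4% and 36.2% in these comparisons, so the lower counts in the first and last were near the background. Mitochondrial ribosomal proteins had 4 higher and 5 lower of 55 in IEC4 against IEC2, 23 and 1 in IEC12 against IEC4, 24 and 6 in IEC12 against IEC2, and 22 and 8 of 56 in AOC against IEC12. Their medians were 0.09, 0.36, 0.31 and 0.14 in these comparisons, beside 0.20, −0.15, 0.03 and −0.21 for all tested genes. The first thus lay below the median of all genes and the others above it.

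Of 11 tested regulators of ribosomal protein synthesis, 6 were higher and none lower in IEC4 than in IEC2, and none higher and 6 lower in IEC12 than in IEC4, beside 24.8% of all tested genes higher in the first and 26.9% lower in the second. MYC, a transcription factor known to act on ribosome genes, was listed at 0, 0 and 0.131 FPKM in IEC2, 2.40, 9.64 and 17.5 FPKM in IEC4, 0, 0 and 0.16 FPKM in IEC12 and 80.8, 55.4 and 47.2 FPKM in AOC. LARP1, which binds TOP mRNAs, was lower in IEC12 than in IEC4 by −2.002 (SE 0.37, adjusted p = 0.0022), with 15.1, 19.2 and 17.6 FPKM in IEC4 and 1.62, 3.44 and 7.10 FPKM in IEC12. EIF4EBP1, the translation repressor that mTOR inactivates, was lower in IEC12 than in IEC4 by −1.305 (SE 0.21, adjusted p = 0.0013) and higher in AOC than in IEC12 by 1.45 (SE 0.19, adjusted p = 4.9e-05).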

How the data were processed

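Poly(A) cDNA libraries of 12 samples, 3 biological replicates per group, were sequenced by the authors. According to the submitters' processing notes, Bowtie2 2.2.3, TopHat2 2.0.12 and Cufflinks 2.2.1 were used with the susScr11 assembly (Sscrofa11.1), and the deposited values were FPKM per gene as the authors made them with no read counts. FPKM divides by transcript length. Whether an effective-length correction was used, which weighs most on the shortest transcripts and so on the split between longer and shorter members, is not given in the sources used here. Values were analysed in R 4.3.3 with limma 3.58.1 (moderated test with a mean-variance trend) on log2(FPKM + 1), for genes of at least 1 FPKM in at least 3 libraries of the fit. IEC groups were compared in 1 fit of their 9 libraries and AOC with IEC12 in 1 fit of all 12, with Benjamini-Hochberg adjustment over all tested genes. p-values measure the spread between these replicates.

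Relative depth was estimated from 1844 genes under 0.1 FPKM, where 71.3% of 6638 ratios between libraries lay within 0.01 log2 of a ratio of whole numbers, against 4.39% if evenly spread. Absolute depth is unknown. Members were picked by symbol and not by value, but the family and the gene lists were chosen with earlier results of these data known. Named members were the 5 largest called changes in each direction, those over 3 scaled median absolute deviations from the members' median, the 5 highest and 5 lowest by mean, and the stalk, 5S and paralog members. Other genes were added after their values were seen. A few members that entered all fits and counts are not reported here by name. The fits were tested on simulated data. Alternatives changed the pseudocount, filter, scaling, libraries, variance model, replicate block and thresholds. The main fits did not treat replicate letters as pairs. Correlations of same-letter deviations ran from −0.51 to 0.25, which with 3 libraries per group cannot decide whether the letters mark a pairing.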

Additional observations from a re-analysis of the deposited data

How the results depend on the processing

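In each comparison the direction with more called members stayed the same wherever any were called. The exception was IEC12 against IEC2 without IEC12 C, with 9 higher and 6 lower, beside 20.9% and 20.2% of all tested genes. With the limits used in the study, 0 members were higher and 0 lower in all comparisons with every library included, and RPL35 alone passed them in AOC against IEC12 without IEC12 A (log2 change 3.09). For IEC4 against IEC2, lower members numbered 17 without a filter (6.95% of all tested genes) and 14 to 31 with 1 replicate left out (8.75 to 11.9%). With only those groups in the fit 1 member, RPS27L, was higher (28%). Median-of-ratios scaling gave a median of −1.05. For IEC12 against IEC4, higher members numbered 12 to 28 with 1 replicate left out (11.4 to 16.9% of all tested genes). With equal FPKM totals 1 member was lower (31.9%). The median was 0.94 under median-of-ratios scaling and 0.52 to 0.94 with 1 replicate left out. For IEC12 against IEC2, lower members numbered 6 without a filter (10.3% of all tested genes) and 7 with median-of-ratios scaling (21.2%). They numbered 17 with equal FPKM totals (25.7%) and 6 to 11 with 1 replicate left out (13.8 to 20.2%). Higher members numbered 2 to 9 with 1 replicate left out (17 to 24.5%). The members' median was −0.38 with equal totals, ran from −0.27 to 0.12 with 1 replicate left out, and turned positive without IEC12 C (0.118). For AOC against IEC12, lower members numbered 6 (28.5% of all tested genes) and the median was 1.39 with median-of-ratios scaling. The median was 0.83 to 1.11 with 1 replicate left out. The causes were not tested.

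The replicate block gave 21 lower members for IEC4 against IEC2 (11.8% of all tested genes) and 20 higher for IEC12 against IEC4 (16.1%). It gave 2 higher and 9 lower for IEC12 against IEC2 (23.1% and 19.6%). For AOC against IEC12 it gave 23 higher and 10 lower (21.9% and 35.1%). Whether the letters mark a pairing is not known. The libraries that correlated best with their own letter numbered 1, 0, 4 and 0 of 6 in these comparisons.

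The family's share in AOC, IEC4 and IEC12 was 4.78, 4.62 and 5.35% with mitochondrially encoded genes left out of the total. Without the 5 highest members it was 2.74% in IEC2, 1.56% in IEC4, 2.00% in IEC12 and 3.13% in AOC, so AOC and not IEC2 was then highest. The median member was 12.1, 5.22, 11.7 and 16.5 times the median expressed gene for IEC2, IEC4, IEC12 and AOC. For 30 pairs of a named member and a comparison, 386 of the alternative values kept their direction and side of the threshold. Of the others, 28 lost the call, 1 gained it and 3 reversed direction with no call in either fit. FPKM keeps no counts, so no counting error could be given.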
